A study of Mus musculus with 207 samples.

Results

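The galectin genes of the mouse cecum were followed here across a breeding population of the Collaborative Cross (CC), the mouse population made by intercrossing inbred founder strains. The 6 genes are Lgals1, Lgals2, Lgals3, Lgals4, Lgals9 and Lgals3bp, taken by name, and they were read by 10 of the 45281 probes of an Illumina bead array. They are 6 of the 19057 genes with a probe that the platform annotation gives to a single gene. RNA from the cecum of 207 mice was hybridised, 1 array a mouse, of which 205 were labelled female or male, with 3 more males than females, and 2 carried no sex. No mouse had a treatment or a mutation in its label. All were adults of the same breeding population, and the first number of a label was read as the breeding line. This gave 113 lines, of which 92 held at least 1 female and 1 male, 185 mice in all. Cells were pelleted after the dissected cecum had been filled with EDTA and dithiothreitol, a procedure that loosens epithelium.

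Galectins are lectins that bind beta-galactosides on glycoproteins and glycolipids, and they leave the cell without a signal peptide. Galectin-1 (Lgals1) is a homodimer made by stromal and immune cells, and galectin-2 (Lgals2) is its close relative in the gut lining. Galectin-3 (Lgals3) joins its lectin domain to a tail through which it self-associates, and is made by surface epithelium and by macrophages. Galectin-4 (Lgals4) and galectin-9 (Lgals9) hold a pair of lectin domains in 1 chain. Galectin-4 is a gut epithelial protein of apical membrane sorting, and galectin-9 binds receptors of T cells and is made more strongly under interferon. Lgals3bp encodes a secreted glycoprotein that galectin-3 binds. It is no lectin itself and is a known interferon target.

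The genes lie on 4 chromosomes of GRCm38.p6. Lgals1 spans 78926725 to 78930465 and Lgals2 spans 78850860 to 78855529 on chromosome 15, Lgals3 spans 47373860 to 47386167 on chromosome 14 and Lgals4 spans 28833122 to 28841710 on chromosome 7. Lgals9, from 78962979 to 78984924, and Lgals3bp, from 118392747 to 118401959, lie on chromosome 11. RefSeq promoter windows, 250 bases before to 50 bases after a transcript start, were at hand for 5 of the 6 genes. For 4 of them this start is the edge of the gene span, whereas the Lgals4 window is set on a start at 28833794, 672 bases inside the span given above. They are shown because Lgals3 went with Lgals4 and Lgals9 with Lgals3bp across lines, while Lgals2 went with other genes. Capitals mark matches on either strand to 6 motifs. These are the TATA box, searched as TATAAA, the GC box as GGGCGG and the CCAAT box by its own letters. The site of GATA factors was searched as AGATAA and that of caudal-type homeobox factors as TTTATG. The core of interferon-stimulated response elements was searched as the letters GAAA repeated after any 2 bases. The windows are Lgals3 at chr14:47373610-47373909 and Lgals4 at chr7:28833544-28833843 on the plus strand, and Lgals9 at chr11:78984875-78985174, Lgals3bp at chr11:118401910-118402209 and Lgals2 at chr15:78855480-78855779 on the minus strand.
Lgals3: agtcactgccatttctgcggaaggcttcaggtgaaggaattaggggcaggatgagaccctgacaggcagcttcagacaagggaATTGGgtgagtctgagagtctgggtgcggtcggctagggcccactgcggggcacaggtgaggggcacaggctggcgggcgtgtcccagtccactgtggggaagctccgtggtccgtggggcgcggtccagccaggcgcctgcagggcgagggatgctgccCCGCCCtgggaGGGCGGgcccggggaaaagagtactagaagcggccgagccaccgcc
Lgals4: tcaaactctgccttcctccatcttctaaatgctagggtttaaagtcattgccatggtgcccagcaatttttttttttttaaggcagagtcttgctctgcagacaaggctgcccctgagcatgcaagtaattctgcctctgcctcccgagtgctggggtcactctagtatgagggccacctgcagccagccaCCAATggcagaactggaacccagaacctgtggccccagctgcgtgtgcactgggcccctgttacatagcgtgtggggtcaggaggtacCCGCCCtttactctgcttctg
Lgals9: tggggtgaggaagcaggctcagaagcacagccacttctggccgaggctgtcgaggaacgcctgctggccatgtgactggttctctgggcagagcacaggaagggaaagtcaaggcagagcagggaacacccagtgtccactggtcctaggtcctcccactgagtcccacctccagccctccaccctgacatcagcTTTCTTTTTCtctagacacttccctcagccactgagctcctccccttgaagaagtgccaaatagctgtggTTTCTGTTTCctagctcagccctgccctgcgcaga
Lgals3bp: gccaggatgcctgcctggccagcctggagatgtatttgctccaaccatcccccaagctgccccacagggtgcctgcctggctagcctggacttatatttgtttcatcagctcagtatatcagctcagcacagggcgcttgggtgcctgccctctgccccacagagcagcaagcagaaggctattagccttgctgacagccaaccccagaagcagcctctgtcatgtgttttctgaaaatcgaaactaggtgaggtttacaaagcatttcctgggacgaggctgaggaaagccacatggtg
Lgals2: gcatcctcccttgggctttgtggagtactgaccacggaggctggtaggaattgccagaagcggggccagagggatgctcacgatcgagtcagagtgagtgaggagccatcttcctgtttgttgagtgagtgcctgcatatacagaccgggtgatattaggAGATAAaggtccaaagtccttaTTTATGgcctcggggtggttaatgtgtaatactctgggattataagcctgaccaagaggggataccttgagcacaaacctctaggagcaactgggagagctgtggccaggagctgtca

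Lgals3 and Lgals4 both held a CCAAT box and a GC box, which 37.4% and 35.7% of all 32851 promoter windows hold, those of Lgals4 around its inner start. The Lgals3 window was the richest in CG dinucleotides of the 5, with 18 against a median of 7 over all windows. Lgals9 held 2 matches to the interferon-stimulated core, 55 bases before and 16 bases after the start, a motif present in 3.44% of windows, and Lgals3bp held no match to any of the 6 motifs. The Lgals2 window held AGATAA 90 bases and TTTATG 68 bases before the start, found in 11.2% and 11.9% of windows. TATAAA, in 13.6% of windows, was in none of the 5. A match describes letters only.

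The deposited values are linear intensities, normalized by the authors, and levels here are their log2 with values under 16 set to 16. The median log2 level of an array lay between 5.38 and 6.70, and 20322 probes had a mean above a background level of 6.33, the 95th percentile of 1543 probes of olfactory, vomeronasal and taste receptor genes. Of the arrays, 8 (6 of females and 2 of males) held values below 0 and stood apart for the galectins, as given below, so results are also given without them. In 4 mice the sex-linked signals were those of the opposite sex. In the tissue check, the epithelial genes Krt8 and Cdh1 averaged 13.88 and 11.11, the goblet cell mucin Muc2 13.95, and the smooth muscle and stromal genes Acta2 and Dcn 14.04 and 12.63, so the samples held both compartments. In such bulk samples, fewer cells of a type and less RNA per cell cannot be told apart.

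All 6 galectins were above background. Lgals3 and Lgals4 gave very bright probes, at 14.58 ± 0.66 and 14.42 ± 0.54 (log2, mean ± SD, n = 207), which correspond to median intensities of 23008 and 21277. Lgals3bp stood at 9.96 ± 1.02, Lgals1 at 9.76 ± 0.92, Lgals9 at 8.52 ± 0.89 and Lgals2 at 7.52 ± 1.2. Probes differ in how well they bind, so these levels set no order among the genes. Lgals1, Lgals3, Lgals4 and Lgals3bp were above the background level in all 207 mice, Lgals9 in 205 and Lgals2 in 194.

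The genes differed in how far single mice lay apart. The median SD over the 11407 genes above background was 0.43. Lgals2 exceeded 99% of them, Lgals3bp 97.7%, Lgals1 96.4% and Lgals9 95.8%, whereas Lgals3 exceeded 85.6% and Lgals4 72.9%. Between the 5th and the 95th percentile of mice, Lgals2 spanned 3.33 log2 units, Lgals3bp 3.18, Lgals1 3.02, Lgals9 2.78, Lgals3 2.01 and Lgals4 1.72. Lgals2 thus had the widest span and Lgals4 the narrowest.

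The 8 arrays with values below 0 carried part of this spread. Lgals3 averaged 16.12 ± 0.37 (SD) on those 8 and 14.52 ± 0.59 on the other 199, and Lgals4 averaged 15.46 ± 0.42 on the 8 and 14.38 ± 0.50 on the others. Lgals9 averaged 6.49 ± 0.73 on the 8 and 8.60 ± 0.80 on the others, and Lgals3bp averaged 7.84 ± 0.68 on the 8 and 10.04 ± 0.93 on the others. Lgals3 and Lgals4 were thus brighter and Lgals9 and Lgals3bp dimmer on these arrays. Lgals2 averaged 6.2 ± 1.47 on the 8 and 7.57 ± 1.16 on the others. Lgals1, at 10.20 ± 0.80 on the 8 and 9.74 ± 0.93 on the others, differed by less than 1 SD.

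Where a gene had several probes, these did not all agree. For Lgals9 the 3 probes, at 8.52, 7.59 and 7.35, rose and fell together, with r of 0.96 and 0.88 between the brightest and the other two over the 92 line means. For Lgals4 the brightest probe and the second, at 14.10 ± 0.53, gave an r of 0.88. The third Lgals4 probe, at 12.56 ± 0.94, gave -0.23 with the brightest. Its accession is not among the transcripts that the reference lists for Lgals4, unlike those of the other 9 probes. Lgals6, a close copy of Lgals4 that some mouse strains carry, had no probe under that name. Results for Lgals4 below are those of the brightest probe, and some values of the third are given beside them.

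No galectin was called different between the sexes. Lgals1 ranged from 7.87 over a median of 9.46 to 12.32 in females, and from 7.89 over 9.73 to 12.14 in males. Lgals2 ranged from 4.0 (the floor) over 7.24 to 12.20 in females, and from 4.86 over 7.31 to 12.03 in males. For both genes the sexes overlap over almost the whole range, and the highest female and male lie close together. Lgals3 ranged from 12.92 over 14.60 to 16.59 in females, and from 13.51 over 14.47 to 16.40 in males. Lgals4 ranged from 12.47 over 14.36 to 16.18 in females, and from 13.18 over 14.39 to 16.02 in males. For both genes the lowest and the highest mouse were females. Lgals9 ranged from 6.56 over 8.53 to 10.29 in females, and from 4.86 over 8.56 to 10.54 in males. Lgals3bp ranged from 6.47 over 10.09 to 11.59 in females, and from 7.2 over 10.18 to 12.06 in males.

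**Figure D1:**
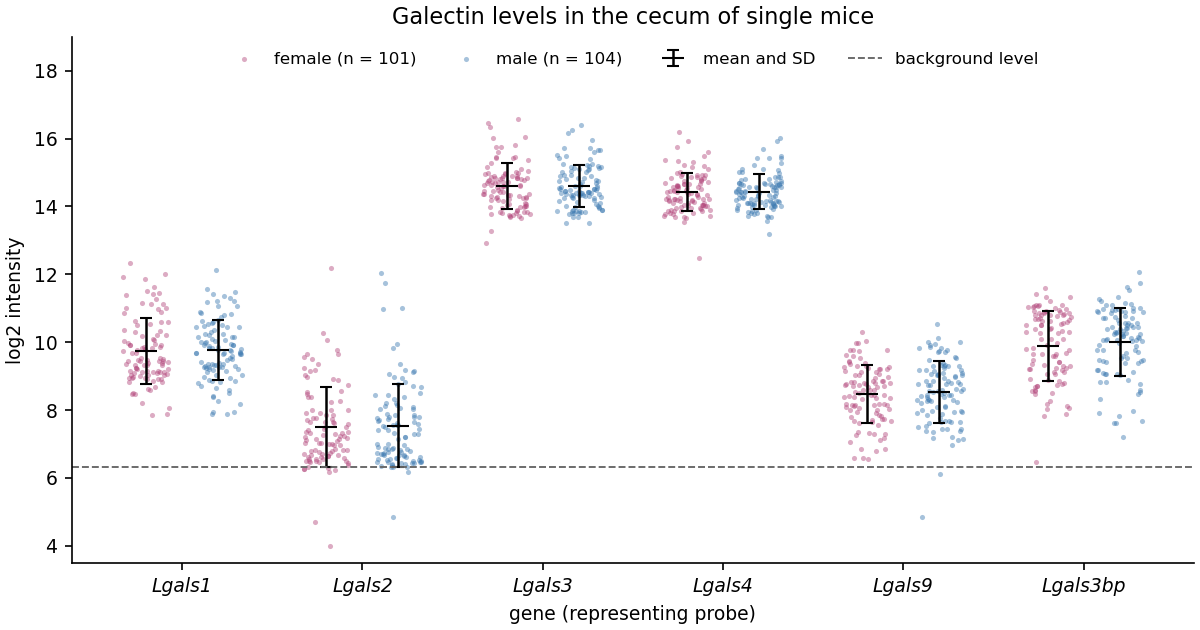
Log2 intensity (vertical axis) of the brightest probe of each galectin gene in single mice, females left of males, with the mean and SD in black and the background level of 6.33 dashed. The clouds of females and males overlap for every gene, and single mice of both sexes stand high for Lgals2, at 12.20 and 12.03.

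The female minus male difference on the log2 scale was -0.11 ± 0.14 (SE) for Lgals3bp, -0.08 ± 0.12 for Lgals9, -0.04 ± 0.17 for Lgals2, -0.03 ± 0.13 for Lgals1, -0.01 ± 0.09 for Lgals3 and -0.01 ± 0.07 for Lgals4. Of the 6 genes, 0 were higher and 0 lower in females by limma with Benjamini-Hochberg adjustment over all probes (adjusted p = 1.0 for each), and 0 passed an unadjusted p of 0.05. Over all probes, 0.0199% were called higher in females and 0.0155% lower, so few genes of any kind were called. The median absolute difference was 0.03 for the 6 genes and 0.03 for all probes above background. With the line as a block, 0 of the 6 passed an unadjusted p of 0.05 as well.

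No galectin passed the test of line, and most of the spread lay between mice of the same line. The paper calls these lines incipient, and estimates the generation of most genotyped mice as only partly inbred. Mice of a line could therefore differ in genotype, and the part of this in the spread was not tested. The line intraclass correlation (ICC) is the share of the spread that lies between lines, near 1 when mice of a line have the same level and near 0 when they differ as much as mice of different lines. It was 0.240 (95% interval 0.0397 to 0.422) for Lgals3bp and 0.211 (0.00965 to 0.396) for Lgals1. It was 0.129 (-0.0749 to 0.323) for Lgals4, 0.128 (-0.0757 to 0.322) for Lgals3, 0.116 (-0.0880 to 0.311) for Lgals9 and -0.0768 (-0.274 to 0.127) for Lgals2. By the F-test of line with Benjamini-Hochberg adjustment over all probes, 0 of the 6 had a line effect, against 5.96% of all 45281 probes. Their adjusted p was 0.119 for Lgals3bp, 0.190 for Lgals1 and 0.463 to 0.846 for the other 4. At an unadjusted p of 0.05, Lgals3bp and Lgals1 passed, 2 of 6, as did 15.5% of all probes. The median ICC was 0.128 for the 6 genes and 0.0791 for all probes above background.

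Measured as SDs, Lgals3bp varied by 0.49 between lines and 0.87 within lines, and Lgals1 by 0.43 between and 0.83 within. For Lgals3 and Lgals4 the SDs were 0.24 and 0.20 between lines, against 0.62 and 0.52 within. For Lgals9 they were 0.30 between and 0.82 within, and for Lgals2 the estimate between lines was 0, with 1.24 within. In each of the 6 genes the spread within lines was thus the larger.

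At the ends of the line distribution, mice of a line were close together in some lines and far apart in others. For Lgals1, line 695 was the highest, with 11.40 in its female and 11.42 in its male, and line 1639 the lowest, with 8.07 in its female and 7.89 in its male. For Lgals3bp, line 491 was the highest, at 11.34 in its female and 12.06 in its male, followed by line 1401 at 11.42 in its female and 11.75 in its male. The lowest Lgals3bp line, 5515, held a female at 6.47, on an array with values below 0, and a male at 9.77. Line 491 was also the highest for Lgals9, at 9.99 in its female and 10.54 in its male, followed by line 381 at 9.77 in its female and 9.84 in its male. Line 1200 was the highest for both Lgals3 and Lgals4. Its female, whose array held values below 0, stood at 16.59 for Lgals3 and 16.18 for Lgals4, and its male stood at 15.39 for Lgals3 and 15.43 for Lgals4. Line 1288 was among the 3 highest for both genes as well, with 15.62 in its female and 15.67 in its male for Lgals3. Across the 92 lines the median absolute female to male gap within a line was 0.51 for Lgals4, 0.62 for Lgals3, 0.68 for Lgals3bp, 0.73 for Lgals9, 0.79 for Lgals1 and 0.80 for Lgals2.

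**Figure D2:**
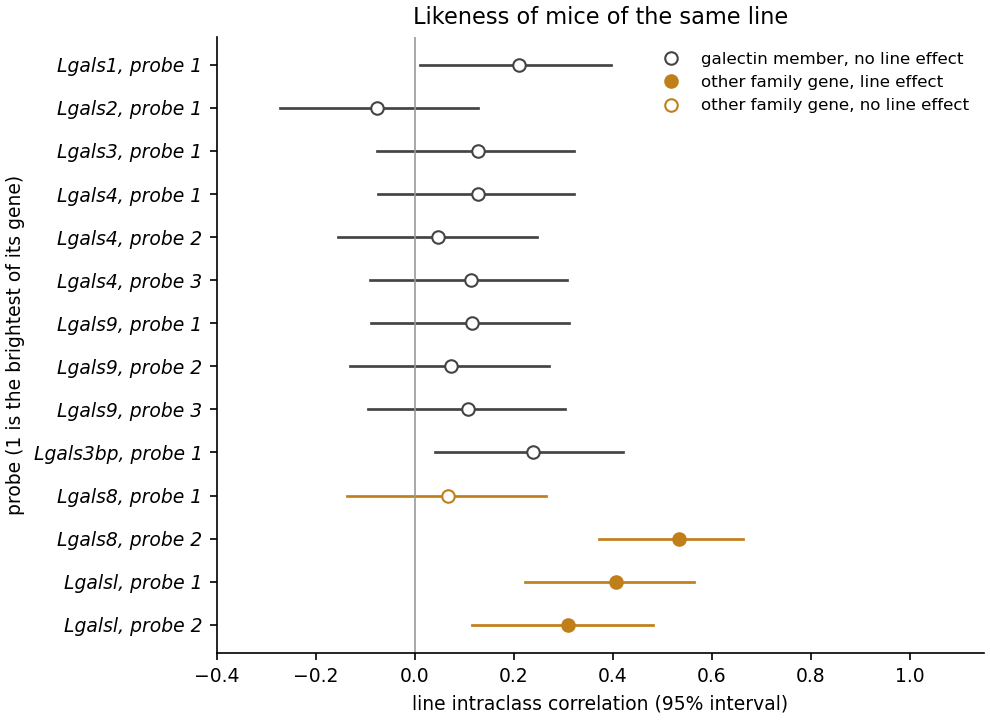
Line intraclass correlation (horizontal axis, point with 95% interval) of each galectin probe above background and of 2 other genes of the family, where filled points passed the F-test of line at an adjusted p of 0.05. All 10 probes of the 6 genes are open, and the filled points are the second Lgals8 probe at 0.533 and both Lgalsl probes at 0.407 and 0.310.

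Some other genes of the family had a probe with a line effect, and their difference from the 6 members was not tested. Lgalsl, a galectin-like gene, had an ICC of 0.407 on its brightest probe (adjusted p = 0.000793 by the F-test) and 0.310 on the other (adjusted p = 0.0232). Lgals8, a further galectin with a pair of lectin domains, had an ICC of 0.533 on its second probe (adjusted p = 1e-06) but 0.0663 on its brightest (adjusted p = 0.646), and both Lgals8 probes lay well above background at 8.70 and 8.87. A call on 1 of 2 probes belongs to that probe. Over line means, the 2 Lgals8 probes gave an r of -0.26 with each other and the 2 Lgalsl probes 0.23. Probes over sequence differences between the founders were not removed here, and their part in these calls was not tested. Lgals7, Lgals12 and Grifin, galectins of squamous epithelium, adipose tissue and lens, were not above background in their means. Their female minus male differences were not called, nor was any association with the epithelial minus stromal score described below.

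Across lines, the galectins fell into pairs that moved together. For each line, values with the mean of each sex removed were averaged, and Pearson's r was computed over 92 line means with a two-sided permutation test (100000 resamples, smallest p 1e-05), adjusted over the 15 pairs of genes. Lgals3 and Lgals4 rose and fell together (r = 0.88, Spearman's rho = 0.85, adjusted p = 1.9e-05). So did Lgals9 and Lgals3bp (r = 0.72, rho = 0.69, adjusted p = 1.9e-05). Each gene of the first pair ran against each gene of the second, with r of -0.69 for Lgals3 and Lgals9, -0.59 for Lgals3 and Lgals3bp, -0.58 for Lgals4 and Lgals9 and -0.57 for Lgals4 and Lgals3bp (adjusted p = 1.9e-05 for each). Lgals1 went with Lgals4 (r = 0.59) and Lgals3 (r = 0.50) and against Lgals9 (r = -0.43) and Lgals3bp (r = -0.36). Lgals2 went weakly with Lgals1 (r = 0.28, adjusted p = 0.00847), and its r with the other 4 lay between -0.0907 and 0.0858. In all, 11 of 15 pairs passed. Without the 2 lines farthest from the median, r was 0.86 for Lgals3 and Lgals4 and 0.69 for Lgals9 and Lgals3bp.

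The positive pairs kept their sign under each alternative, and so did the opposition of Lgals3 to Lgals9 and Lgals3bp, whereas Lgals4 with these 2 genes changed sign under 1 scaling. Without the 8 arrays with values below 0, r was 0.85 for Lgals3 and Lgals4, 0.64 for Lgals9 and Lgals3bp, and -0.49 to -0.62 for the 4 opposed pairs. Among lines whose last label number was under 100, Lgals3 and Lgals4 gave 0.87 and Lgals9 and Lgals3bp 0.69, and among those at 100 or more they gave 0.90 and 0.76. After quantile normalization, a scaling that gives all arrays the same distribution, Lgals3 and Lgals4 kept an r of 0.48 and Lgals9 and Lgals3bp 0.74. The opposed pairs lost their negative call then. Lgals3 gave -0.11 with Lgals9 and -0.0531 with Lgals3bp, and Lgals4 gave 0.12 with Lgals3bp, none of them called. Lgals4 with Lgals9 passed the permutation test in the opposite direction (r = 0.24, adjusted p = 0.0414). Lgals2 passed against Lgals3 (r = -0.31, adjusted p = 0.0072), a pair not called with the deposited values. Lgals1 lost its link with Lgals3 (r = 0.0040) and Lgals4 (r = 0.0772) under the same scaling. With the mean of all probes of a gene, Lgals4 gave an r of 0.53 with Lgals3, and its r was -0.14 with Lgals9 and -0.17 with Lgals3bp.

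Levels of ribosomal protein transcripts moved with the galectins. The mean standardised level of 51 Rpl and Rps genes above background gave, over the 92 lines, r of 0.74 with Lgals4, 0.71 with Lgals1, 0.66 with Lgals3, 0.17 with Lgals2, -0.64 with Lgals9 and -0.66 with Lgals3bp. The third Lgals4 probe gave -0.13. Over mice this score had a median of 1.34 on the 8 arrays with values below 0 and -0.21 on the other 199. The median log2 level of the array gave r of 0.25 to 0.36 with Lgals1, Lgals2, Lgals3 and Lgals4, and -0.34 and -0.32 with Lgals9 and Lgals3bp. With the ribosomal score removed by regression, Lgals3 and Lgals4 had an r of 0.77, Lgals9 and Lgals3bp 0.52, and Lgals3 and Lgals9 -0.47, while Lgals4 and Lgals9 had -0.21 and Lgals1 and Lgals4 0.16. The part of this score in the correlations was not tested further.

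**Figure D3:**
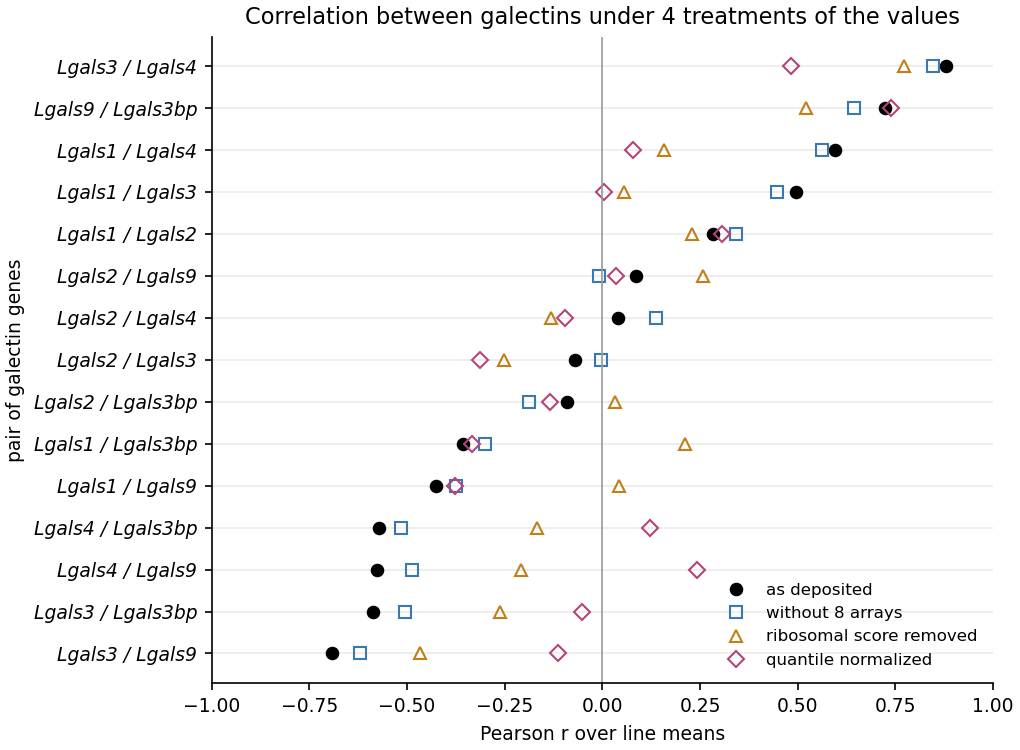
Pearson's r over line means (horizontal axis) for the 15 pairs of galectin genes, from the deposited values, without the 8 arrays with values below 0, with the ribosomal protein score removed, and after quantile normalization. Lgals3 with Lgals4 and Lgals9 with Lgals3bp stay positive under all 4, whereas Lgals4 with Lgals9 runs from -0.58 with the deposited values to 0.24 after quantile normalization.

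Lgals9 and Lgals3bp passed the test with the epithelial genes as a group. An epithelium score, the mean standardised line mean of 10 epithelial markers above background, gave r of 0.62 with Lgals9 (rho = 0.59) and 0.52 with Lgals3bp (rho = 0.49), each with an adjusted p of 9.3e-05 over the 84 pairs of 6 genes and 14 marker lists. Among the 11407 genes, Lgals9 ranked 294th and Lgals3bp 882nd by this r. Without the 2 lines farthest from the median score, r was 0.60 and 0.47, and without the 8 arrays with values below 0 it was 0.57 and 0.42. Within lines of last label number under 100, Lgals9 gave 0.67 and Lgals3bp 0.46, and within those of 100 or more 0.58 and 0.60. The other 4 galectins gave r between -0.19 and 0.00371, none past the threshold. The absorptive colonocyte score gave 0.21 with Lgals9 and 0.20 with Lgals3bp, neither past the threshold. The epithelium score itself gave an r of -0.36 with the ribosomal score.

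By single markers, Lgals9 correlated positively with 9 of the 10 epithelial genes, most with Krt19, a keratin of simple epithelium (0.78), Cldn3, a tight junction claudin (0.67), and Elf3, an epithelial transcription factor (0.65). Lgals3bp did so with the same count, again most with Krt19 (0.66). Cdh1, which encodes E-cadherin, was the exception for both, with -0.53 for Lgals9 and -0.45 for Lgals3bp. Lgals3 and Lgals4 showed the reverse. They had r of 0.83 and 0.81 with Cdh1, and -0.53 and -0.51 with Krt19. The epithelial markers themselves were therefore split, and a score near 0 for Lgals3 and Lgals4 averages markers of opposite sign.

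Lgals3, Lgals4 and Lgals1 passed the test with the goblet cell score instead. The score of 9 goblet cell markers gave r of 0.60 with Lgals4 (rho = 0.61), 0.53 with Lgals3 (rho = 0.55) and 0.47 with Lgals1 (rho = 0.50), with an adjusted p of 9.3e-05 for each, and it ran against Lgals9 (r = -0.41, adjusted p = 0.000305) and Lgals3bp (r = -0.36, adjusted p = 0.00274). Lgals4 ranked 22nd of 11407 genes by this r. Its nearest goblet cell genes were Tff3, a trefoil peptide of mucus (0.88), Spink4 (0.76) and Zg16, a lectin of the mucus layer (0.74). Muc2, the mucin that forms the gel, gave 0.0684 with Lgals4 and 0.0614 with Lgals3, so the 9 markers did not move as a block. The goblet cell score itself gave an r of 0.50 with the ribosomal score. Over its single markers, the median r was 0.23 with Lgals4, 0.16 with Lgals3 and 0.21 with Lgals1, with Spdef negative for each. After quantile normalization the score's r was 0.26 with Lgals4, 0.18 with Lgals3 and 0.21 with Lgals1, of which the Lgals4 call held, and with the ribosomal score removed it was 0.40, 0.30 and 0.19, of which the Lgals1 call was lost. The third Lgals4 probe went the other way, with -0.10 for the goblet cell score and 0.58 for the epithelium score.

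No galectin passed the test with the fibroblast and matrix genes as a group. The score of 10 such genes gave r of 0.22 with Lgals3bp (adjusted p = 0.101), 0.11 with Lgals9 and Lgals1, 0.0306 with Lgals2, -0.0655 with Lgals3 and -0.0876 with Lgals4. Single stromal genes did correlate, in opposite directions. Dcn, the matrix proteoglycan decorin, gave 0.64 with Lgals4, 0.60 with Lgals1 and 0.57 with Lgals3, whereas Col6a1, a chain of collagen VI, gave -0.64 with Lgals4 and Lgals3 and -0.42 with Lgals1. Lgals9 gave 0.69 with Col1a1 and 0.65 with Col6a1 but -0.62 with Pdgfra, the PDGF receptor of fibroblasts. Lgals3bp gave 0.65 with Col6a1, close to its 0.66 with Krt19, and -0.47 with Pdgfra.

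Lgals1 passed the test with the macrophage and smooth muscle scores. Its r was 0.47 with the score of 8 macrophage markers (rho = 0.50, adjusted p = 9.3e-05), which placed it 90th of 11407 genes, and 0.35 with the score of 9 smooth muscle genes (adjusted p = 0.00320). Lgals3 and Lgals4 gave 0.25 and 0.24 with the smooth muscle score and 0.0906 and 0.12 with the macrophage score, none past the threshold, and the differences from Lgals1 were not tested. With the macrophage score it gave 0.39 among lines of last label number under 100 and 0.55 among those of 100 or more. The closest markers were Aif1, a calcium-binding protein of macrophages (0.70), and Adgre1, the F4/80 antigen (0.52), whereas the complement genes C1qa and C1qc gave 0.18 and 0.0359 and the receptor gene Csf1r gave -0.15. Lgals3 and Lgals4 had similar r with Aif1 (0.65 and 0.68) and Adgre1 (0.61 and 0.57). With the ribosomal score removed, r with the macrophage list was 0.25 (adjusted p = 0.0570), no longer past the threshold.

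**Figure D4:**
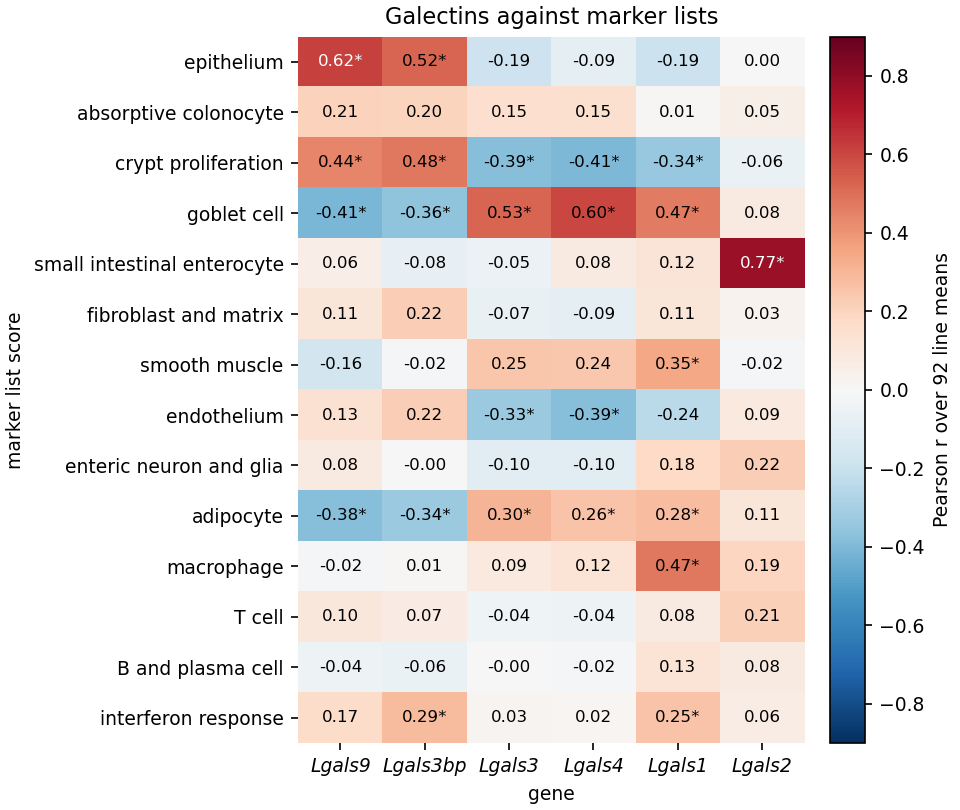
Pearson's r over 92 line means between each galectin gene (columns) and the score of each of 14 marker lists (rows), with an asterisk for an adjusted p under 0.05 over the 84 pairs. Lgals9 and Lgals3bp share the epithelium row at 0.62 and 0.52, Lgals3, Lgals4 and Lgals1 share the goblet cell row at 0.53, 0.60 and 0.47, and Lgals2 stands alone in the small intestinal enterocyte row at 0.77.

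In all, 24 of the 84 pairs passed by Pearson's r and 20 by Spearman's rho. The crypt proliferation score, of 7 cell cycle and stem cell genes, went with Lgals3bp (r = 0.48) and Lgals9 (r = 0.44) and against Lgals4 (r = -0.41), Lgals3 (r = -0.39) and Lgals1 (r = -0.34). With the mean of all probes of a gene, Lgals4 gave 0.0230. Interferon response genes went with Lgals3bp (r = 0.29, adjusted p = 0.0232) and with Lgals1 (r = 0.25, adjusted p = 0.0488), both with a rho that missed the threshold. Lgals9, whose window held the interferon-stimulated core, did not pass with them (r = 0.17, adjusted p = 0.255). All 6 interferon markers were positive for Lgals3bp, led by Oasl2, an antiviral protein (0.54). Endothelial genes ran against Lgals4 (r = -0.39) and Lgals3 (r = -0.33), but with the 5th percentile of each array subtracted these were 0.0131 and 0.106. The adipocyte score, of 3 genes, passed with 5 of the galectins at r of 0.26 to 0.30 with Lgals1, Lgals3 and Lgals4 and -0.34 and -0.38 with Lgals3bp and Lgals9. By rho the positive 3 missed the threshold, and Lgals4 turned to -0.106 after quantile normalization and -0.109 with the mean of all probes. T cell, B cell, absorptive colonocyte, and neuron and glia scores passed with none, at absolute r up to 0.22.

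As a single contrast, the epithelium score minus the fibroblast and matrix score was fitted by limma to the line means of every probe. Lgals9 rose by 0.30 ± 0.06 (SE) log2 units per SD of the contrast (adjusted p = 0.000398) and Lgals3bp by 0.24 ± 0.08 (adjusted p = 0.0221), so 2 of the 6 rose with it, against 9.77% of all probes, and 0 fell, against 13.6%. Those shares include probes at background, and a larger share was called among probes above it, where all 6 genes lie. The count is thus not read as a trait of galectins. At an unadjusted p of 0.05, 2 rose and 1, Lgals1, fell. Lgals1 had a slope of -0.17 ± 0.07 (adjusted p = 0.0649), Lgals3 of -0.06 ± 0.05 (adjusted p = 0.396), Lgals2 of -0.01 ± 0.08 (adjusted p = 0.911) and Lgals4 of -0.01 ± 0.04 (adjusted p = 0.931). The third Lgals4 probe rose by 0.23 ± 0.07 (adjusted p = 0.0134). The call for Lgals3bp was lost without the 8 arrays (slope 0.13, adjusted p = 0.286) and with the ribosomal score as a covariate (slope 0.10, adjusted p = 0.287), and calls for both genes were lost among the 51 lines of last label number under 100, with slopes of 0.26 for Lgals9 (adjusted p = 0.106) and 0.12 for Lgals3bp (adjusted p = 0.605). With smooth muscle genes as the stromal side, Lgals1 (slope -0.29), Lgals3 (-0.16) and Lgals4 (-0.10) fell as well, with adjusted p of 0.000603, 0.00744 and 0.0480, while after quantile normalization Lgals4 rose (slope 0.10, adjusted p = 0.000182). The 2 scores were not opposed over lines, with an r of 0.19.

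Lgals2 followed genes of the small intestine. The score of 7 small intestinal enterocyte genes gave an r of 0.77 (rho = 0.82, adjusted p = 9.3e-05), and 0.79 without the 2 lines farthest from its median. It was 0.80 among lines of last label number under 100 and 0.75 among those of 100 or more, 0.84 over females alone and 0.83 over males alone, and 0.77 after quantile normalization. All 7 genes were positive, led by Apoa1, the main apolipoprotein of HDL (0.79), Sis, the brush border enzyme sucrase-isomaltase (0.74), and Fabp6, the bile acid binding protein of the ileum (0.67). The r of Lgals2 with the other 13 lists lay between -0.0590 and 0.22.

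High Lgals2 levels occurred in single mice. Lgals2 exceeded 9 in 24 of 207 mice, 10 in 7 and 11 in 4. The highest was the female of line 863, at 12.20, with Apoa1 at 15.71, Apoa4 at 15.39 and Sis at 13.61. The male of line 1234 followed at 12.03, with Apoa1 at 15.70, Apoa4 at 15.36 and Sis at 14.98. Both had Fabp6 below the background level, at 5.61 and 6.0, so these mice had the apolipoprotein genes high and the ileal gene near background. The male of line 863 had an Lgals2 level of 6.48 and the female of line 1234 one of 6.62, both near background.

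The next mice differed from these in Fabp6 and Apoa4. The males of lines 618, 157 and 667 had Lgals2 at 11.74, 11.00 and 10.98 with Fabp6 at 13.01, 11.66 and 12.50. Their Apoa4 stood at 6.41, 6.97 and 7.70, far below that of the first 2 mice, with a mean over all mice of 6.54. Apoa1, at 12.46, 12.26 and 13.76, and Sis, at 11.37, 11.13 and 11.70, were high in these males as well. Over all 207 mice, Apoa1 had a median of 8.38 and a highest value of 15.71, Fabp6 a median of 7.63 and a highest of 13.01, and Sis a median of 7.79 and a highest of 14.98. Muc2 in the 5 mice with the most Lgals2 lay between 12.84 and 15.52.

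**Figure D5:**
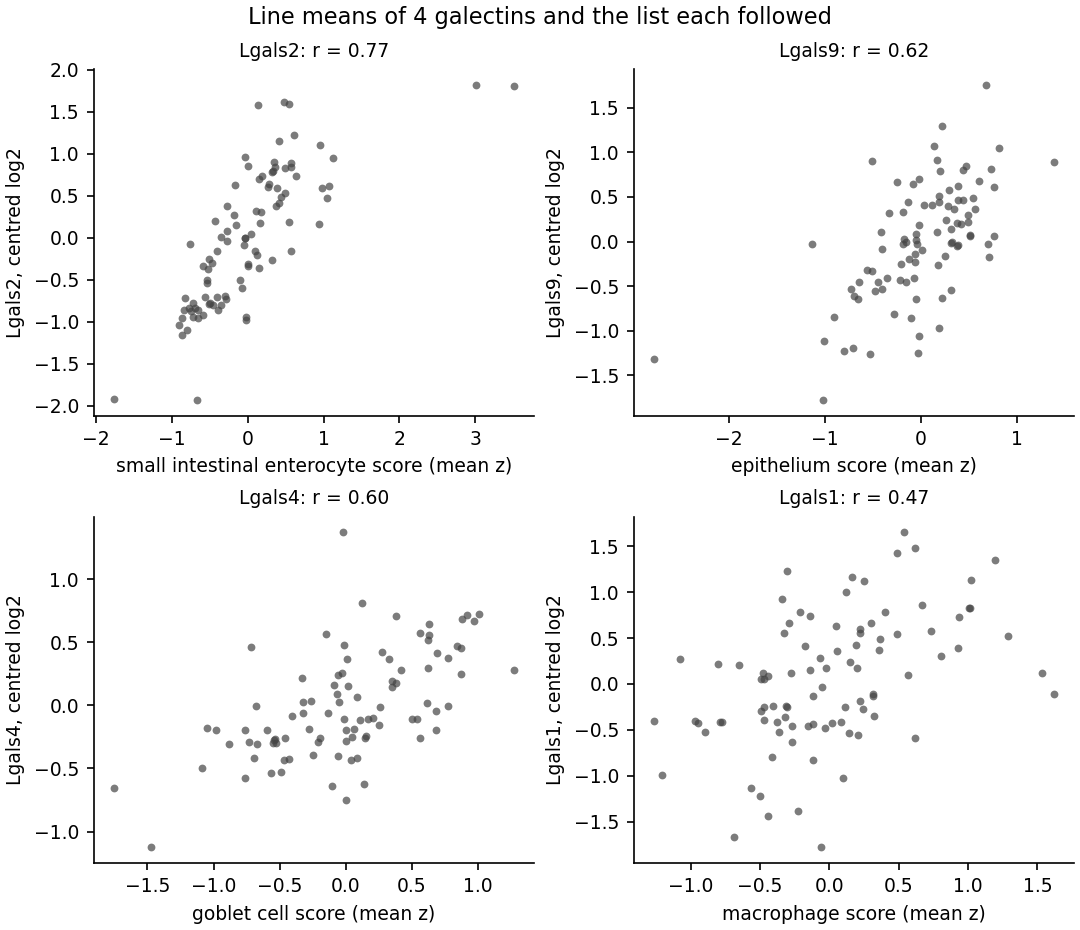
Line means of Lgals2, Lgals9, Lgals4 and Lgals1 (vertical axes, log2 with the mean of each sex removed) against a marker list score with which each passed (horizontal axes, mean standardised level), 1 point for each of 92 lines. For Lgals1 the macrophage score is shown, and the goblet cell score gave the same r of 0.47. Lgals2 climbs steeply with the small intestinal enterocyte score (r = 0.77) with 2 lines far to the right, and the clouds for Lgals9, Lgals4 and Lgals1 are wider (r = 0.62, 0.60 and 0.47).

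The genes whose pattern over lines was most like each galectin, by Pearson's r over 92 line means among genes above background, are given here as a description. For Lgals2 they were Bcl2l15, of the BCL2 family (0.85), Slc7a9, an amino acid transporter of the small intestine and kidney (0.80), Apoa1 (0.79), and Defa26 and Defa3, defensins of Paneth cells that belong to a family of near copies (0.77 and 0.74). For Lgals3 they were the mitochondrial CYTB (0.92), the ferritin heavy chain Fth1 (0.89), Rps14 (0.89), Rpl3 (0.88) and Atp5mpl (0.88). For Lgals4 they were Cox6c (0.90), Rpl27a (0.89), Rpl36a (0.89), Rps14 (0.89) and Rpl3 (0.89). Lgals3 and Lgals4 thus shared Rps14 and Rpl3. Lgals9 was nearest to the cytoskeletal Actn4 (0.86), Hpcal1 (0.86), the tight junction gene Tjp3 (0.86), Gnas (0.85) and Ppp2r1a (0.85). Lgals3bp was nearest to the lysosomal Gaa (0.76), Foxp4 (0.76), Strn4 (0.75), Numa1 (0.74) and Arf3 (0.74). Lgals1 was nearest to Rwdd1 (0.78), Ost4 (0.77), Uxt (0.76), Ppp2r5d (0.76) and Tmem29 (0.75). The 5 genes nearest to Lgals1 had r of 0.76 to 0.90 with the ribosomal score, and those nearest to Lgals3bp -0.81 to -0.55. Those nearest to Lgals3 had 0.69 to 0.87, to Lgals4 0.85 to 0.88, to Lgals9 -0.75 to -0.60 and to Lgals2 0.04 to 0.16. The genes nearest to Lgals3 and Lgals4 were also bright, with mean levels from 12.46 to 15.31, and those nearest to Lgals9 stood at 8.08 to 9.07. The part of brightness in these links was not tested.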

How the data were processed

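Cecum RNA of 207 mice was hybridised to Illumina Mouse WG-6 bead arrays. The deposited values are linear intensities, 1 column a mouse, which the authors made with BeadStudio 3.0.19 by rank-invariant normalization without background subtraction. For mapping the authors removed probes over sequence differences between the founders, whereas the deposited table holds 45281 probes and no such filter was applied here. No column was left out (0 unused). Levels are log2 intensities with a floor of 16. The number of arrays and of lines limits the precision.

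Groups are the sexes in the labels, and lines come from the first number of a label. The labels and the methods do not explain the last number. The methods describe litters weaned into breeding pairs and phenotyping by pair and line. Whether the mice of a line measured here share a litter is not stated. The p-values of the sex and line tests rest on the spread between these mice. Those of the correlations and the contrast rest on the spread between line means. The main fit of sex took mice of a line as independent. A gene is represented by its probe of highest mean level, and of 45281 probes 34885 had 1 gene symbol, 18 several and 10378 none. Line effects were tested by the F-test of line on values with the mean of each sex removed, sex differences and the epithelial minus stromal contrast by limma 3.58.1 (R 4.3.3), and correlations over line means by permutation in Python 3.11.15 (scipy 1.17.1). All p-values were adjusted by the Benjamini-Hochberg method, over all probes or over the pairs of genes and lists. A list score is the mean standardised line mean of its genes above background, and 14 of 15 lists with at least 3 such genes were scored (exocrine pancreas had 2). The fits were tested on simulated data.

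Named genes are the 6 members, the other galectin family genes on the array, the 5 genes nearest to each member, the 3 highest and 3 lowest lines, and list markers on which a result turns. The members and lists were chosen with earlier results of these data known. Mice with the highest Lgals2 were chosen after their values were seen. Alternatives were quantile normalization, subtraction of the 5th percentile, a floor of 32, leaving out arrays with values below 0 or mice of opposite sex signal, each range of the last label number, 1 sex alone, single mice, other scores, the mean of all probes of a gene, only probes above background, the line as a block, and, chosen after seeing the data, the ribosomal score as a covariate. Promoter sequences and gene positions are from RefSeq, GRCm38.p6.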

Additional observations from a re-analysis of the deposited data

How the results depend on the processing

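Each result of the 6 genes, and each called correlation, was compared with the main run under each alternative. Each comparison was classed as same, weaker, stronger or reversed, where same does not mean equal values. Line ICCs were classed as same in 48 of 48 such comparisons and sex differences in 60 of 60. Contrast slopes were so classed in 70 of 84, with 4 weaker, 8 stronger and 2 reversed. Called correlations were so classed in 334 of 409, with 66 weaker and 9 reversed. In the fit of sex with the line as a replicate block, 17 probes were called, against 16 without it, and 0 galectins in both. It changed no call of a galectin.

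Over all probes, 2697 had a line effect, against 4166 after quantile normalization, 4988 without the arrays with values below 0, and 1576 and 1339 in lines of last label number under 100 and of 100 or more. The sex calls numbered 32 without those arrays. The epithelial minus stromal contrast called 10598 probes, against 17100 after quantile normalization, 24553 with the 5th percentile subtracted, 2569 without those arrays, 266 and 5018 in the 2 ranges of the last label number, 7056 among probes above background, 17811 over single mice (which are not independent within a line), 4630 in females only, 17993 with a median score and 3436 with the ribosomal score. Of the galectins it called 2, against 4 after quantile normalization, 1 without those arrays, 0 in the range under 100, 5 with smooth muscle genes and 1 with the ribosomal score. List correlations called numbered 24, against 11 in lines of 100 or more and 41 over single mice. Pairs of galectins called numbered 11, against 7 after quantile normalization and 6 with the ribosomal score. The 7 included Lgals2 with Lgals3 (r = -0.31) and Lgals4 with Lgals9 (r = 0.24). The 6 included Lgals2 with Lgals3 (r = -0.25) and Lgals2 with Lgals9 (r = 0.26). None of these was called in that direction in the main run. Fewer lines or probes enter some of the alternative fits, and otherwise the cause was not tested. For the contrast, the 10598 calls were among 45281 probes and the 7056 among the 20322 above background.

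Reversed in sign were the Lgals4 slope (0.0965 after quantile normalization, 0.0958 with the mean of probes) and the r of Lgals4 with adipocyte genes (-0.106 and -0.109 in the same settings) and with crypt proliferation (0.0230 with the mean of probes). For Lgals4 the mean of probes includes the third probe, which had an r of -0.23 with the brightest and a slope of 0.23. With the 5th percentile subtracted, endothelial genes gave 0.106 with Lgals3 and 0.0131 with Lgals4. Lgals4 gave 0.243 with Lgals9, called in this direction, and 0.122 with Lgals3bp, not called, after quantile normalization. With the ribosomal score removed, Lgals1 gave 0.0426 with Lgals9 and 0.210 with Lgals3bp. Lgals2 was above background in 194 of 207 mice, which limits its lower range.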
